A study of Rattus norvegicus with 6 samples.

Results

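The enzymes that build triglyceride from glycerol-3-phosphate were followed in rat liver through 10 genes of this route. They were taken by symbol from a deposited table of 25926 rows, each member matched 1 row, and 9 of the 10 were abundant enough to enter the test. Total parenteral nutrition (TPN) through a vein fed 3 rats for 7 days, and 3 control rats received 0.9% saline. The strain of every animal was Sprague-Dawley and the labelled age 4 weeks. The TPN rats carried the disease label PNALD and the controls the label normal. The labels give neither the composition of the infusion nor how the saline was given, and PNALD is not defined by any lesion measured here.

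Hepatocytes make triglyceride by adding acyl chains to glycerol-3-phosphate one after another. An acyltransferase makes lysophosphatidate, a second makes phosphatidate, a lipin removes the phosphate to give diacylglycerol, and a diacylglycerol acyltransferase adds the last chain. The product is stored in lipid droplets or secreted in lipoproteins, and the intermediates phosphatidate and diacylglycerol are also used for phospholipids. In the liver many of these genes are known to respond to insulin, feeding and fasting.

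The unit is FPKM, mapped fragments divided by the length of the transcript and by the size of the library, so levels can be set side by side between genes. Tests used limma on log2(FPKM + 1) over the 11362 features that averaged 1 FPKM or more, 2-sided, with Benjamini-Hochberg adjusted p (called below 0.05). Log2 fold changes are TPN minus control on this scale, which understates the change of low genes. In whole tissue, fewer cells of a type and less RNA per cell cannot be told apart.

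The livers within a group were not alike. In log2(FPKM + 1), Pearson correlations went from 0.942 to 0.968 among the TPN livers, from 0.961 to 0.981 among the controls and from 0.920 to 0.961 between the groups. A score of 14 acute-phase genes (mean log2(FPKM + 1)) was 11.4, 9.46 and 9.51 in TPN 1, 2 and 3, against 7.93, 10.2 and 8.25 in the controls in the same order of numbers. TPN 1 and control 2 thus lay at the high end of their groups. Log2 fold changes are therefore also given without both. All 8 hepatocyte markers were present, with summed FPKM of 40755 to 68977 in TPN livers and 61396 to 82798 in controls. Alb, at 12828 to 48388 FPKM, was the largest part of that sum in every liver. Log2 fold changes were negative in 5 of the 8 and positive in 3, Apoa1, Serpina1 and Hnf4a, with a median of -0.13. Of 10 adipocyte markers, Adipoq, Plin1, Lep and Adrb3 were listed at 0 in all 6 livers. The summed FPKM of that list was 36.6 to 48.8 in TPN and 25.4 to 42.4 in control, mostly from Cfd, Pnpla2, Fabp4 and Cidea, which liver also expresses. Of 7 enterocyte markers in the table Alpi was listed at 0 throughout and the summed FPKM was 155 to 192 in TPN and 273 to 318 in control, nearly all from Apoa4, which rat liver makes.

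Promoter stretches are shown for Pnpla3 and Gpam, the members with the lowest log2 fold changes, and for Lpin1, the only tested member with a positive one. Each is the 150 bases before the RefSeq transcription start in the build GRCr8, written 5′ to 3′ on the gene's strand, with capitals for any of 5 motifs searched on both strands. Pnpla3 lies at chr7:117173378-117173527 (plus strand), Gpam at chr1:264175912-264176061 (minus strand) and Lpin1 at chr6:45108943-45109092 (minus strand).
Pnpla3: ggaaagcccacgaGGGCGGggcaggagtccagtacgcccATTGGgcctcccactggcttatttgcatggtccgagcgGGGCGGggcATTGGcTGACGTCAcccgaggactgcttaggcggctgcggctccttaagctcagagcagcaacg
Gpam: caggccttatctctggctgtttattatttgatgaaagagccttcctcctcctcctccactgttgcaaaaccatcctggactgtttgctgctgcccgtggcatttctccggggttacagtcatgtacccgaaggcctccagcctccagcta
Lpin1: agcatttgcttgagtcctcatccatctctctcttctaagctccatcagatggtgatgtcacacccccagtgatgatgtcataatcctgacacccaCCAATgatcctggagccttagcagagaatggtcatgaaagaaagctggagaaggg

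The RefSeq table held promoters of 8 of the 10 members. Dgat1 and Dgat2 had none there. In the 250 bases before the start, CCAAT (the letters bound by NF-Y; ATTGG on the other strand) was found in Gpam, Lpin1, Lpin3, Mogat1 and Pnpla3, and in 34.3% of 27457 promoters. GGGCGG, the GC box, was found in Agpat2 and Pnpla3 and in 32.4% of promoters. TGACGTCA, the cyclic AMP response element, was found in Pnpla3 alone among the 8, at bases 58 to 51 before the start, and in 1.7% of promoters. The sterol element TCACNCCAC and the E-box CACGTG were in none of the 8 windows, against 0.976% and 5.79% of promoters. The 5 matches in the Pnpla3 stretch share no bases with each other. The Gpam stretch holds no capitals because its match lies further out, at bases 174 to 170 before the start. These matches describe letters in these windows only.

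No member of the route passed the test in TPN liver. The count was 0 of 9 by limma's adjusted p, where 28 of 11362 features passed (0.246%). At an unadjusted p under 0.05 there was 1 member, Gpam, where 11.4% of all features were. Only Lpin3 had groups that did not overlap, lower in TPN, where 17.1% of features did not overlap in either direction and 9.09% were lower. Log2 fold changes were negative in 8 of the 9 tested members, with a median of -0.30, against 49.1% negative and a median of 0.0065 over all features. Without control 2 and TPN 1 the count was again 8 of 9, with a median of -0.34. It was 5 of 8 without control 3, where Pnpla3 dropped below the filter, 6 of 9 without TPN 1 and 9 of 9 without TPN 2. The members' median moved to -0.16 without control 3, -0.18 without TPN 1, -0.48 without control 2 and -0.55 without TPN 3. The median over all features moved as well, to 0.015, 0.044, -0.021 and -0.063 in the same order. Pnpla3, counted as negative here, reached the filter only through its controls, which favours a negative sign. With a minimum mean of 5 FPKM, which left out Pnpla3 and Lpin3, 6 of 7 members were negative, with a median of -0.28. Over all features 49.6% were negative at that filter. The members were measured in the same livers and are not independent of each other.

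**Figure D1:**
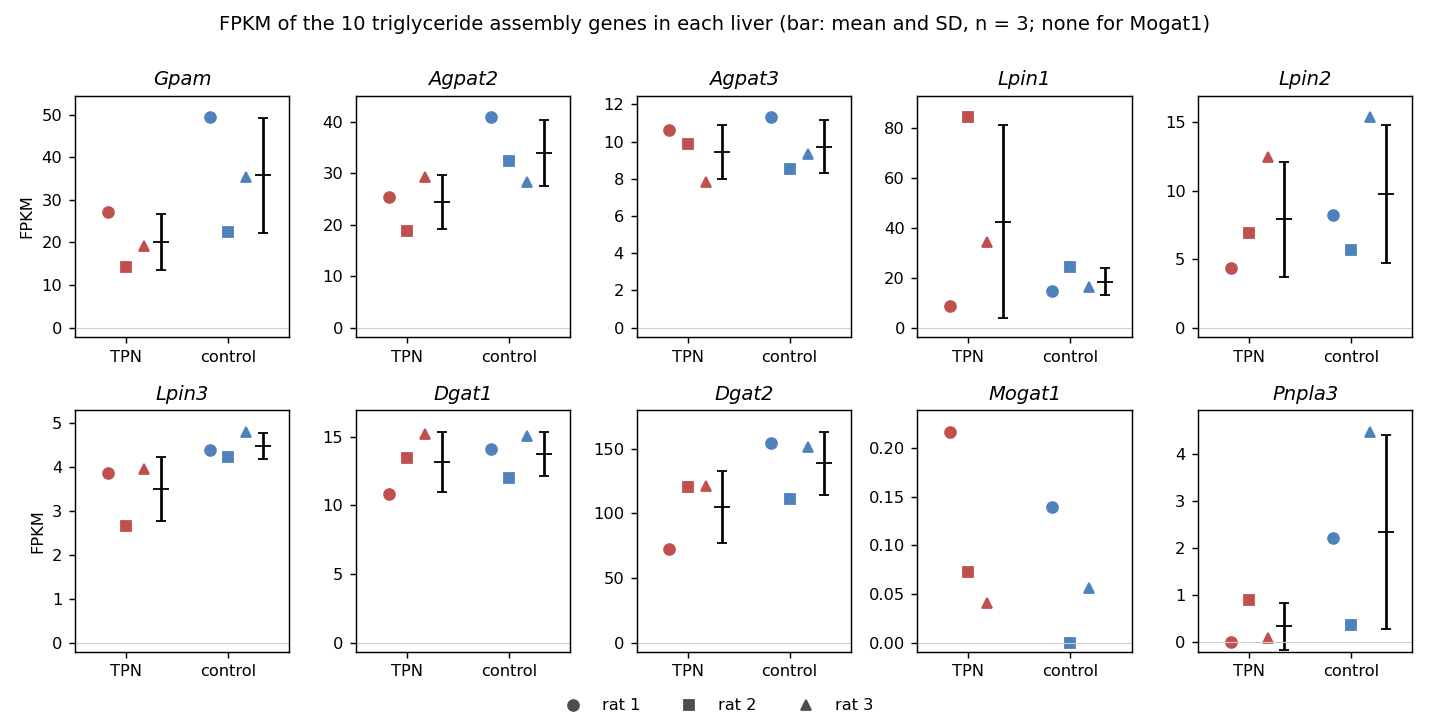
FPKM of each member in each TPN and control liver (points; the marker gives the rat's number in its group), with group mean and SD (n = 3) except for Mogat1, where control 2 is listed at 0. The groups overlap in every panel except Lpin3, and Lpin1 spans 8.50 to 84.7 FPKM within the TPN group.

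Gpam (ENSRNOG00000015124) encodes the mitochondrial glycerol-3-phosphate acyltransferase, which commits acyl-CoA to glycerolipid synthesis. It measured 27.1, 14.2 and 19.1 FPKM in TPN 1, 2 and 3, against 49.5, 22.4 and 35.3 FPKM in control 1, 2 and 3. Control 2 lay below TPN 1, and the other 2 controls lay above all TPN livers. The means were 20.1 ± 6.53 FPKM in TPN and 35.8 ± 13.6 FPKM in control (SD, n = 3 each). The log2 fold change was -0.78 (SE 0.33, 95% interval -1.54 to -0.01, limma adjusted p = 0.428). It was -1.29 without control 2 and TPN 1 (limma adjusted p = 0.0888) and -0.51 without control 1 (limma adjusted p = 0.989). Leaving out control 2, the lowest control, and TPN 1, the highest TPN liver, could only widen the difference.

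Agpat2 and Agpat3 belong to the acyltransferases of the next step, which turn lysophosphatidate into phosphatidate. Agpat2 (ENSRNOG00000019466), whose loss causes lipodystrophy in humans, measured 25.4, 18.8 and 29.2 FPKM in TPN 1, 2 and 3, against 41.0, 32.4 and 28.4 FPKM in the controls. TPN 3 lay above control 3 and the other livers were apart. Its means were 24.5 ± 5.25 FPKM in TPN and 33.9 ± 6.43 FPKM in control (SD, n = 3 each), and the log2 fold change was -0.46 (SE 0.22, 95% interval -0.97 to 0.05, limma adjusted p = 0.48). Without TPN 2 it was -0.29. Agpat3 (ENSRNOG00000001205) measured 10.6, 9.89 and 7.84 FPKM in TPN, against 11.3, 8.55 and 9.32 FPKM in control. The groups lay across each other. Its log2 fold change was -0.04 with a 95% interval from -0.44 to 0.36 (limma adjusted p = 0.961), so a 2-fold difference lies outside the interval.

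The lipins are the phosphatidate phosphatases of the route, and lipin 1 also acts in the nucleus as a coactivator with PGC-1 alpha. Lpin1 (ENSRNOG00000004377) measured 8.50, 84.7 and 34.3 FPKM in TPN 1, 2 and 3, against 14.8, 24.6 and 16.1 FPKM in the controls. TPN 1 was the lowest of all 6 livers while TPN 2 and TPN 3 were the highest 2. Within the TPN group the highest liver had 9.97 times the lowest, against 1.66 times among controls. The means were 42.5 ± 38.8 FPKM in TPN and 18.5 ± 5.28 FPKM in control (SD, n = 3 each). The log2 fold change was 0.68 (SE 0.76, 95% interval -1.16 to 2.53, limma adjusted p = 0.795). It was 1.53 without TPN 1 (limma adjusted p = 0.22) and -0.06 without TPN 2 (limma adjusted p = 0.986).

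Lpin2 (ENSRNOG00000014876) measured 4.33, 6.90 and 12.5 FPKM in TPN, against 8.24, 5.68 and 15.4 FPKM in control, with a log2 fold change of -0.28 (95% interval -1.29 to 0.73, limma adjusted p = 0.861). Both groups spread nearly 3-fold, and the order of the 3 livers was not that of Lpin1. Lpin3 (ENSRNOG00000016636) measured 3.85, 2.65 and 3.96 FPKM in TPN, against 4.37, 4.22 and 4.80 FPKM in control. All TPN livers lay below all controls, by a small margin. Its log2 fold change was -0.30 (SE 0.17, 95% interval -0.68 to 0.09, limma adjusted p = 0.544), and -0.15 without TPN 2.

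The diacylglycerol acyltransferases Dgat1 and Dgat2 are unrelated proteins that add the last acyl chain. Dgat2 (ENSRNOG00000016573) had the highest level of the 10 members, with 72.5, 121 and 121 FPKM in TPN 1, 2 and 3, against 155, 111 and 151 FPKM in the controls. TPN 1 was well below the other livers, and control 2 lay below TPN 2 and 3. The means were 105 ± 28 FPKM in TPN and 139 ± 24.4 FPKM in control (SD, n = 3 each), and the log2 fold change was -0.43 (SE 0.26, 95% interval -1.03 to 0.18, limma adjusted p = 0.594). Without TPN 1 it was -0.18 (limma adjusted p = 0.756). Dgat1 (ENSRNOG00000028711) measured 10.8, 13.5 and 15.2 FPKM in TPN, against 14.1, 11.98 and 15.1 FPKM in control. Its groups covered each other, with a log2 fold change of -0.06 and a 95% interval from -0.47 to 0.35 (limma adjusted p = 0.937).

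Mogat1 (ENSRNOG00000014692), which makes diacylglycerol from monoacylglycerol and so bypasses the lipins, had the lowest level of the 10 members. It measured 0.217, 0.0722 and 0.0405 FPKM in TPN and 0.14, 0 and 0.0562 FPKM in control. It did not enter the test, and no fold is given.

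Pnpla3 (ENSRNOG00000022268) encodes adiponutrin, a lipid droplet protein with lipase and acyltransferase activity whose human variant is tied to fatty liver, and whose gene is known to respond to feeding. It measured 0.0126, 0.901 and 0.0893 FPKM in TPN 1, 2 and 3, against 2.20, 0.355 and 4.47 FPKM in the controls. TPN 1 and TPN 3 lay below all controls, but TPN 2 lay above control 2. The means were 0.334 ± 0.492 FPKM in TPN and 2.34 ± 2.06 FPKM in control (SD, n = 3 each). Pnpla3 reached the filter of a mean of 1 FPKM only through its controls. The log2 fold change was -1.17 (SE 0.52, 95% interval -2.40 to 0.06, limma adjusted p = 0.459). With a pseudocount of 0.01 in place of 1 it was -3.60 (limma adjusted p = 0.423), without control 2 it was -1.71 (limma adjusted p = 0.113) and without TPN 1 it was -0.998 (limma adjusted p = 0.557). The other values with a rat left out ran from -1.45 to -1.05, and without control 3 Pnpla3 was not tested.

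**Figure D2:**
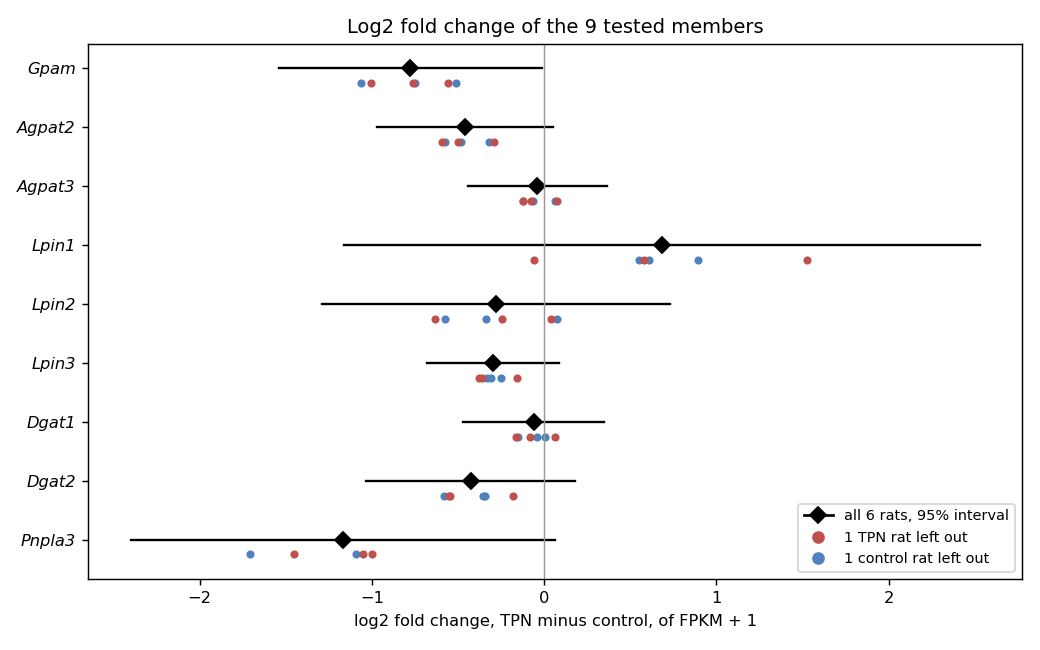
Log2 fold change (TPN minus control, of FPKM + 1) of the 9 tested members, with the 95% interval from limma on all 6 livers (diamonds and lines) and the value after leaving out each TPN or control rat (points). The points of Lpin1 run from -0.06 to 1.53, while those of Gpam stay between -1.07 and -0.51.

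The low values of several members fell in the same livers. Control 2 had the lowest level among the controls in 8 of the 10 members and the highest in 1, Lpin1. TPN 1 had the lowest among the TPN livers in Lpin1, Lpin2, Dgat1, Dgat2 and Pnpla3 and the highest in Gpam, Agpat3 and Mogat1. These are the 2 livers with the highest acute-phase scores of their groups, and the part of that response in the members' values was not tested. With both left out the log2 fold changes were -1.29 for Gpam, -0.52 for Agpat2, -0.20 for Agpat3, 1.74 for Lpin1, -0.26 for Lpin2, -0.39 for Lpin3, -0.03 for Dgat1, -0.34 for Dgat2 and -1.54 for Pnpla3. None passed, with limma adjusted p of 0.0888 for Gpam, 0.14 for Pnpla3, 0.15 for Lpin1 and 0.408 or more for the others. In Gpam and Agpat3 TPN 1 was the highest of its group and control 2 the lowest, and in Lpin1 the reverse. Leaving both out could only widen the differences of these genes.

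By mean FPKM the members of the TPN group ran in the order Dgat2, Lpin1, Agpat2, Gpam, Dgat1, Agpat3, Lpin2, Lpin3, Pnpla3, Mogat1. In that group the ranges of neighbours were apart for Dgat1 and Agpat3, for Lpin2 and Lpin3 and for Lpin3 and Pnpla3, and overlapped for all other neighbours. In the controls the order was Dgat2, Gpam, Agpat2, Lpin1, Dgat1, Lpin2, Agpat3, Lpin3, Pnpla3, Mogat1. There the ranges were apart for Dgat2 and Gpam, Agpat2 and Lpin1, Agpat3 and Lpin3, and Pnpla3 and Mogat1. The main change of place was that of Lpin1, which stood above Agpat2 and Gpam by its TPN mean and below both by its control mean. That place rests on TPN 2, since over TPN 1 and 3 alone the means were 21.4 FPKM for Lpin1, 27.3 for Agpat2 and 23.1 for Gpam.

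Ratios within a liver do not depend on how that liver was scaled. The log2 ratio of Dgat2 over Dgat1 was 2.74, 3.16 and 3.00 in TPN 1, 2 and 3, against 3.45, 3.21 and 3.33 in the controls. All 3 TPN livers lay below all controls, with a difference of -0.36 (exact permutation test, 2-sided, p = 0.1, the smallest that 3 against 3 rats can give, and 0.5 after adjustment over the 5 ratios computed). Lpin1 made up 51.0%, 89.9% and 67.6% of the summed lipin FPKM in TPN, against 54.0%, 71.3% and 44.4% in control (difference 12.9 percentage points, exact permutation p = 0.5). The difference was 2.73 points without TPN 2, 6.84 without control 3, 20.3 without control 2 and 22.2 without TPN 1. Lpin2 made up 25.9%, 7.32% and 24.6% in TPN and 30.0%, 16.5% and 42.4% in control (difference -10.4 points, exact permutation p = 0.4), and that difference was -3.98 points without control 3, -4.38 without TPN 2 and -16.9 without control 2. The log2 ratio of Agpat2 over Agpat3 was lower by 0.43 on average (difference -0.43, exact permutation p = 0.3), with overlap, and was -0.22 without TPN 2 and -0.70 without TPN 3. That of Gpam over Dgat2 was -1.42, -3.09 and -2.67 in TPN and -1.64, -2.30 and -2.10 in control (difference -0.38, exact permutation p = 0.5). That difference was -0.029 without TPN 2, -0.19 without control 1, -0.24 without TPN 3 and -0.86 without TPN 1.

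The FPKM were also summed over Gpam and Gpat2 to Gpat4, over Agpat1 to Agpat5, over the 3 lipins and over Dgat1 and Dgat2, after their values were seen and without a test. The lipid phosphate phosphatases were not counted with the lipins. The lipin sum was 16.7, 94.3 and 50.7 FPKM in TPN and 27.4, 34.5 and 36.3 FPKM in control. For the glycerol-3-phosphate acyltransferases it was 41.4, 32.02 and 44.0 FPKM in TPN and 64.2, 37.0 and 51.0 FPKM in control. Gpam held 65.4%, 44.3% and 43.4% of it in TPN and 77.1%, 60.7% and 69.1% in control. Gpat4, an enzyme of the endoplasmic reticulum, held most of the rest. Agpat2 held 58.5%, 51.9% and 64.4% of the summed FPKM of Agpat1 to Agpat5 in TPN and 70.7%, 67.9% and 65.5% in control. Those groups did not overlap, but they did with Lclat1 added to the sum, when the share was 51.9%, 43.6% and 57.4% in TPN and 60.4%, 59.7% and 54.2% in control. Dgat2 held 87.0% to 89.9% of the diacylglycerol acyltransferase step in TPN and 90.2% to 91.6% in control. With only Dgat1 and Dgat2 in that step, this share restates their ratio given above and is no separate result.

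**Figure D3:**
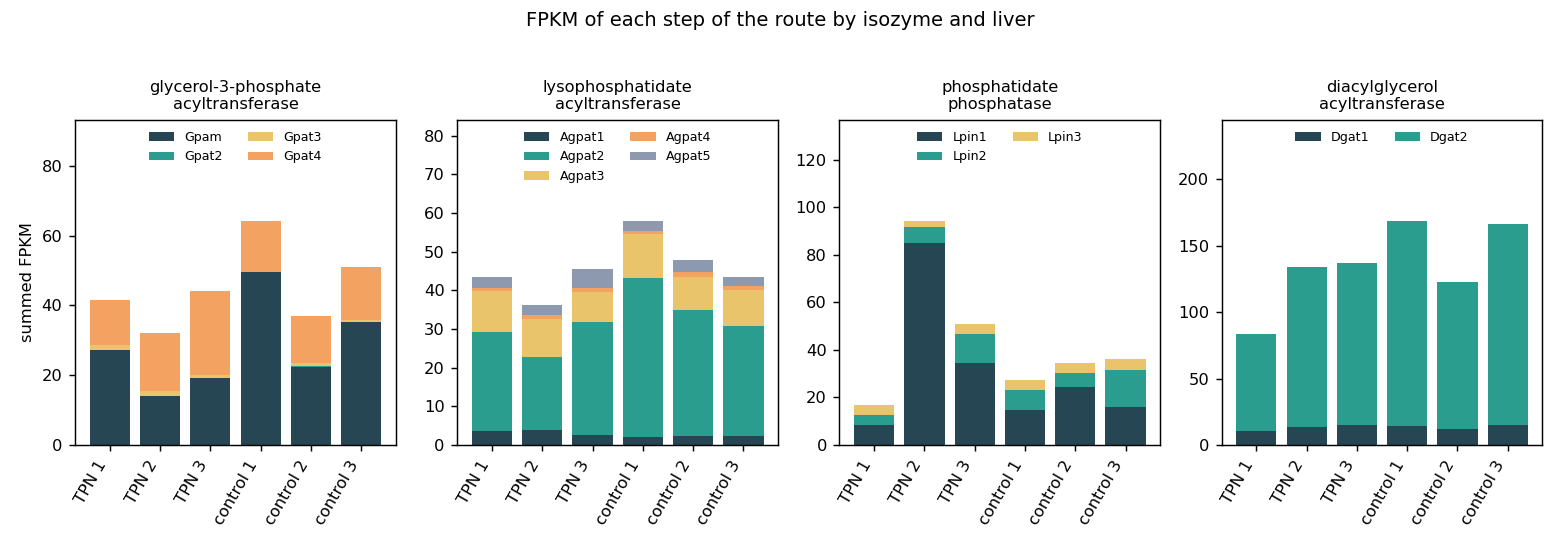
Summed FPKM of 4 steps of the route in each TPN and control liver, stacked by the genes summed (Lclat1 and the lipid phosphate phosphatases are not among them). Agpat2 holds 51.9% to 64.4% of its bar in TPN livers and 65.5% to 70.7% in controls, and the lipin sum ranges from 16.7 to 94.3 FPKM among TPN livers.

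The other genes of the route were read from 4 lists in the same fit. None of their members passed. In the list of other isozymes, 0 of 9 tested genes passed limma's adjusted p, 3 had an unadjusted p under 0.05, and the median log2 fold change was -0.0092. Over all features 0.246% passed and 11.4% had such a p. Plpp5, a lipid phosphate phosphatase, measured 29.7, 17.8 and 26.4 FPKM in TPN and 15.3, 16.2 and 16.6 FPKM in control (limma adjusted p = 0.375). Agpat1, another lysophosphatidate acyltransferase, measured 3.74, 3.91 and 2.54 FPKM in TPN and 2.18, 2.35 and 2.36 FPKM in control (limma adjusted p = 0.42). Both lay above all controls in every TPN liver. They were the 2 of 9 tested without overlap, beside 17.1% of all features in either direction. Lclat1, a lysocardiolipin acyltransferase, measured 5.96 ± 0.816 FPKM in TPN and 8.52 ± 1.72 FPKM in control, and Plpp3, a further lipid phosphatase, 57.3 ± 12.6 FPKM in TPN and 72.4 ± 7.26 FPKM in control (SD, n = 3 each; limma adjusted p = 0.421 and 0.574).

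Genes that supply glycerol and acyl-CoA had the lowest median of the 4 lists, -0.37. Of 15 tested members 11 had negative log2 fold changes, 5 were lower and 1 higher without overlap, 6 had an unadjusted p under 0.05 and 0 passed limma's adjusted p. Over all features 49.1% were negative, 17.1% did not overlap in either direction (9.09% lower) and 11.4% had an unadjusted p under 0.05. Dbi, the acyl-CoA binding protein, measured 167, 307 and 157 FPKM in TPN, against 565, 387 and 560 FPKM in control (log2 fold change -1.30, limma adjusted p = 0.194). Acsl3, a long-chain acyl-CoA synthetase, measured 5.96, 6.83 and 4.54 FPKM in TPN, against 9.45, 10.5 and 9.78 FPKM in control (log2 fold change -0.70, limma adjusted p = 0.195). Both were lower in each TPN liver than in any control. Acsl1, the most abundant of the acyl-CoA synthetases listed, measured 198, 356 and 287 FPKM in TPN, against 604, 392 and 554 FPKM in control (log2 fold change -0.90, limma adjusted p = 0.324). Aqp9, the glycerol channel of hepatocytes, measured 69.2 ± 5.14 FPKM in TPN and 98.8 ± 16.9 FPKM in control (SD, n = 3 each, limma adjusted p = 0.392).

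The list of competing use held genes of phospholipid synthesis, diacylglycerol kinases and the cholesterol acyltransferases Soat1 and Soat2. Not all of these use phosphatidate or diacylglycerol directly. In that list 12 of 18 tested had negative log2 fold changes (median -0.14), 3 had an unadjusted p under 0.05 and 0 passed limma's adjusted p. The shares over all features were 49.1% negative and 11.4% with such a p, so the count by p was near the background. Pemt, which methylates phosphatidylethanolamine to phosphatidylcholine, measured 131 ± 25.4 FPKM in TPN and 196 ± 25.3 FPKM in control (SD, n = 3 each, limma adjusted p = 0.372). Pcyt2, of phosphatidylethanolamine synthesis, measured 81.8 ± 9.59 FPKM in TPN and 110.4 ± 13.2 FPKM in control (limma adjusted p = 0.443), and Dgkd, a diacylglycerol kinase, 9.36 ± 1.84 FPKM in TPN and 13.6 ± 1.89 FPKM in control (limma adjusted p = 0.383). Those 3 of the 18 tested did not overlap between groups, a share near that of all features (17.1% in either direction, 9.09% lower). Soat1, which esterifies cholesterol and competes for acyl-CoA, measured 5.06, 4.10 and 2.76 FPKM in TPN and 1.76, 2.80 and 1.04 FPKM in control (limma adjusted p = 0.325). It had the highest log2 fold change of that list, with an overlap between TPN 3 and control 2.

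Among 21 tested regulators, 12 had negative log2 fold changes (median -0.052), 5 had an unadjusted p under 0.05 and 0 passed limma's adjusted p, beside 49.1% negative and 11.4% with such a p over all features. Srebf2, the transcription factor of sterol synthesis, measured 7.91, 8.37 and 8.27 FPKM in TPN, against 11.7, 12.6 and 11.8 FPKM in control (limma adjusted p = 0.225). Insig1, which retains the SREBP complex in the endoplasmic reticulum, measured 27.2, 61.1 and 36.4 FPKM in TPN, against 66.5, 146 and 98.2 FPKM in control (limma adjusted p = 0.262). Scap, the escort of SREBPs, measured 15.5 ± 2.45 FPKM in TPN and 21.5 ± 1.88 FPKM in control (SD, n = 3 each, limma adjusted p = 0.378). In these 3 genes every TPN liver lay below every control. Of the 21 tested, 5 were lower and 2 higher without overlap, beside 17.1% of all features in either direction (9.09% lower). Abhd5, the coactivator of adipose triglyceride lipase, measured 36.0, 20.7 and 27.0 FPKM in TPN, against 18.1, 20.4 and 15.9 FPKM in control (limma adjusted p = 0.393), and lay higher in each TPN liver.

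Ppargc1a was singled out after its values were seen, because its product PGC-1 alpha is known to raise Lpin1 in fasted mouse liver. It measured 2.12, 4.16 and 2.79 FPKM in TPN 1, 2 and 3, against 1.96, 1.92 and 1.35 FPKM in the controls (log2 fold change 0.53, SE 0.21, limma adjusted p = 0.399). All TPN livers lay above all controls, TPN 1 by a small margin. Its part in the values of Lpin1 was not tested.

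**Figure D4:**
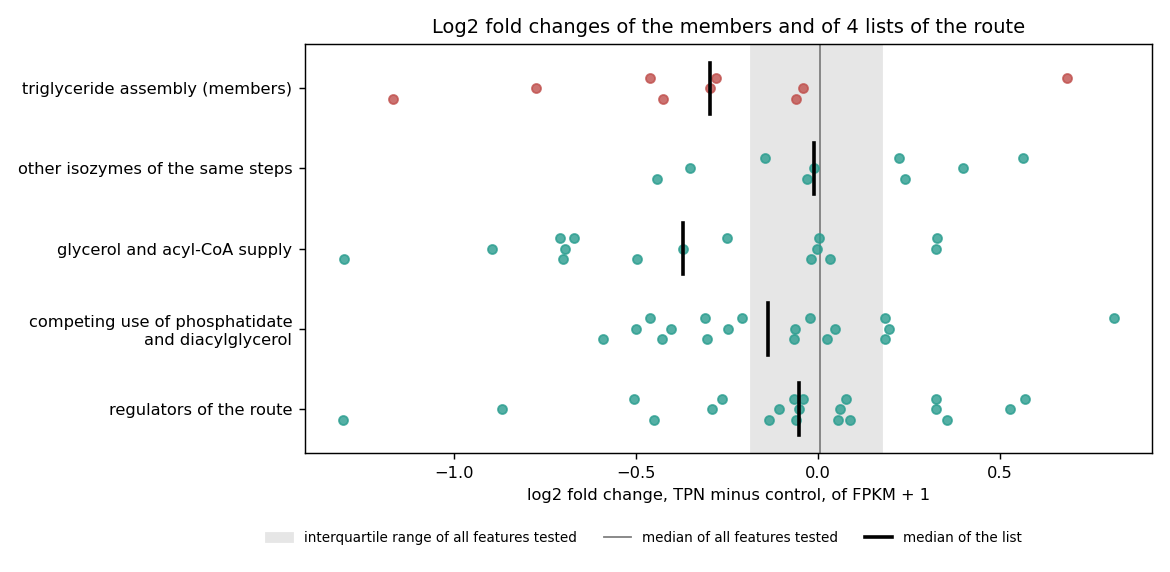
Log2 fold change (TPN minus control, of FPKM + 1) of each tested member and of each tested gene in 4 other lists of the route, with the list's median (black) and the interquartile range and median of all 11362 features (grey). The median is -0.30 for the members and -0.37 for the supply genes, and no gene shown passed limma's adjusted p.

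The features whose pattern over the 6 livers was nearest to a member were found by the root mean square distance of log2(FPKM + 1), each centred on its own mean, among features with a symbol and a mean of at least 5 FPKM. For Pnpla3 these were Lss, Bmf and Evc, at distances of 0.31, 0.32 and 0.36 against a root mean square deviation of 0.88 in Pnpla3 itself. Pnpla3 ran from 0.0126 to 4.47 FPKM, where the pseudocount of 1 flattens low values, and no other pseudocount was tried for these distances. Lss, the lanosterol synthase, measured 4.75, 13.1 and 8.96 FPKM in TPN and 24.2, 12.6 and 30.3 FPKM in control, with control 2 below TPN 2. For Dgat2 they were Pon2, Lgals9 and F12, at 0.043, 0.046 and 0.050 against 0.36 in Dgat2 itself. F12, coagulation factor XII, measured 134, 229 and 225 FPKM in TPN and 298, 219.5 and 269 FPKM in control. The lowest liver was TPN 1 and control 2 was the lowest control, as in Dgat2. These are the nearest of many features over the same 6 livers and carry no test. An order of livers shared with the member is favoured by that choice.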

How the data were processed

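Liver RNA-seq of 3 TPN and 3 control rats was used, grouped by the samples' titles. TRIzol extraction of total RNA and standard Illumina libraries are stated per the labels' protocols. The submitters' processing notes name Bowtie 0.12.2, Cufflinks and the build Rnor_6.0 without their roles. In the table of FPKM that the authors deposited there are no counts. Ratios of values under 0.3 FPKM showed no steps of whole reads (at most 0.853% fell in 1 bin of 0.01 log2), so depth is unknown and no counting interval is given. For strandedness and the handling of shared reads, no statement is given in the sources used here.

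log2(FPKM + 1) of features averaging 1 FPKM or more was fitted with limma 3.58.1 (R 4.3.3, trend and robust settings, group as the only term) and checked on simulated data. Nothing states that rats with the same number belong together. The members and all lists were chosen with earlier results of these data known. Named genes were the 10 members, then up to 4 genes of each list with the smallest p, and 3 nearest features each for the member with the largest change and for the most abundant member. Ratios used exact permutation tests (scipy 1.17.1). The lists matched the table by symbol in 17 of 18, 22 of 24 and 14 of 16 entries for supply, regulators and acute phase and fully for other isozymes and competing use. Markers of skeletal muscle, stellate cells and macrophages were also summed. Promoters came from RefSeq (GRCr8). Alternatives changed the pseudocount, filter, scaling, moderation, weights, block, duplicate symbols or left rats out. Figures used matplotlib 3.10.9.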

Additional observations from a re-analysis of the deposited data

How the results depend on the processing

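No member passed limma's adjusted threshold under any of 19 alternatives. The lowest adjusted p was 0.0696, for Gpam with sample weights. Of 168 member values under alternatives, 161 kept their direction and 7 turned round, all after leaving out 1 rat. These were Agpat3 without control 1 (0.064) and without TPN 3 (0.075), Lpin2 without control 3 (0.075) and without TPN 1 (0.039), Dgat1 without control 3 (0.0054) and without TPN 1 (0.063), and Lpin1 without TPN 2 (-0.058). Over all rats left out singly the ranges were -0.12 to 0.075 for Agpat3, -0.63 to 0.075 for Lpin2, -0.16 to 0.063 for Dgat1 and -0.058 to 1.53 for Lpin1. None of the 5 ratios turned round, though single rats moved all but that of Dgat2 over Dgat1 by over 1.5 times. The number of features past the threshold over the whole table, 28, was 0 after median-ratio scaling, after quantile normalisation and with no filter (1578, 1591 and 1898 at an unadjusted p under 0.05). It was 18 and 5 with pseudocounts of 0.1 and 0.01, 6 with a minimum mean of 5 FPKM, 8 without trend and robust settings, 299 with sample weights and 58 with the replicate block. Leaving out single rats gave 0 (without TPN 3, 1393 at an unadjusted p under 0.05) to 46, and 121 without control 2 and TPN 1 together. The causes of these changes were not tested. With the replicate number as a block, 0 members passed and Gpam had a limma adjusted p of 0.2. Deviations of same-numbered rats correlated at -0.21, -0.14 and 0.32, and those of differently numbered rats at -0.35 to 0.42. With 3 rats per group these values cannot settle whether the numbers pair the rats. Depth is unknown, so low values such as those of Pnpla3 and Mogat1 carry an unknown counting error.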

Other observations

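Stellate cell and macrophage markers were read beside the route because PNPLA3 is also expressed in human stellate cells. Of 7 tested stellate markers 6 had negative log2 fold changes and 0 passed limma's adjusted p (2 at an unadjusted p under 0.05, beside 49.1% negative and 11.4% with such a p over all features). Lrat, which esterifies retinol for storage, measured 2.68, 5.24 and 5.86 FPKM in TPN, against 15.5, 11.5 and 13.7 FPKM in control (limma adjusted p = 0.0882). Its control 2 was the lowest control, as in Pnpla3, but its groups did not overlap. Of the 7 tested stellate markers 2 were lower and 0 higher without overlap, beside 17.1% of all features in either direction (9.09% lower). Lrat had the lowest log2 fold change of the stellate list (-1.42), while that of Rgs5 was positive (0.25). The summed FPKM of the 8 stellate markers was 101 to 137 in TPN and 141 to 210 in control. Of 8 macrophage markers 6 had positive and 2 negative log2 fold changes, beside 49.1% negative over all features. None passed limma's adjusted p (3 at an unadjusted p under 0.05, a share of 11.4% over all features). Marco, a scavenger receptor, measured 169, 141 and 95.7 FPKM in TPN and 74.0, 67.1 and 62.5 FPKM in control (limma adjusted p = 0.206). It had the highest log2 fold change of that list (0.95), while those of Clec4f and C1qa were negative (-0.28 and -0.025). The summed FPKM of that list was 353 to 519 in TPN and 288 to 437 in control. No muscle marker reached a mean of 1 FPKM, Acta1, Myh2 and Mb were listed at 0 in all 6 livers, and the sum of 6 was 0.249 to 0.472 FPKM in TPN and 0.326 to 0.495 in control. The part of these cells in the members' values was not tested. Lrat and Marco were chosen for naming with their values known.

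Gpat3, an acyltransferase of the endoplasmic reticulum below the filter, measured 1.46, 1.20 and 0.85 FPKM in TPN and 0.141, 0.981 and 0.382 FPKM in control, with control 2 above TPN 3. It was singled out after its values were seen.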
